A study of Mus musculus with 6 samples.

Results

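The Fat and Dachsous cadherins are very large cell-surface adhesion proteins, and the group described here is the 7 mouse genes Fat1, Fat2, Fat3, Fat4, Dchs1, Dchs2 and Fjx1. They were picked by gene symbol, with earlier results of these data known, from the 52636 genes of the deposited table. All 7 were in the table, and 6 were among the 16869 genes with enough reads to be tested. Fat2 did not pass that filter on low counts.

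In the fly, where the system was first worked out, Dachsous on one cell binds Fat on its neighbour, and the Golgi kinase Four-jointed phosphorylates the cadherin repeats of both and so tunes how tightly they bind. The pairing orients cells within the plane of an epithelium and restrains growth through the Hippo pathway, which keeps the coactivator Yorkie (YAP in mammals) out of the nucleus. In mammals Dchs1 is the main ligand known for Fat4, the closest relative of fly Fat. In the developing cortex, loss of either has been linked to altered progenitor proliferation and to misplaced neurons.

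RNA was sequenced from mouse forebrain cells at E12.5, dissociated and sorted by FACS for Prominin1, a surface protein of the apical membrane of radial glia, the stem cells of the embryonic cortex. SmadNes mutants (alleles Smad1wt/fl;Smad5wt/fl;Nestin:Cre+/0) carried 1 floxed allele each of Smad1 and Smad5, the transcription factors that relay BMP signals, together with the Nestin:Cre transgene, which is active in neural progenitors. Their control littermates (alleles Smad1wt/fl;Smad5wt/fl;Nestin:Cre0/0) carried the same 2 floxed alleles without Cre. By these labels the comparison was designed for heterozygous loss, not for a full knockout. The strain background was mixed, from CD1, 129/ola and C57BL6. Each genotype had 3 pools, named SF3, SF4 and SF5_6 in both genotypes, and the sequenced pairs were those with the best RNA integrity. How many embryos made up a pool is not stated in these sources, and the p-values below reflect only how much the sequenced pools varied.

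Library totals lay between 33731026 and 38684963 expected counts in SmadNes and between 32997423 and 40744672 in control. At these depths 3 counts correspond to at most 0.0910 CPM (counts scaled to library size). Smad5 had 388, 411 and 373 CPM in the SmadNes SF3, SF4 and SF5_6 libraries, against 289.6, 299.9 and 287 CPM in the control SF3, SF4 and SF5_6 libraries. Smad1 had 86.9, 92.9 and 85.7 CPM in the libraries labelled SmadNes, against 72.7, 77.8 and 76.1 CPM in control, so both targeted genes were higher, not lower, in the libraries labelled SmadNes. Smad5 did not pass between genotypes without the pool block (log2 difference 0.42; adjusted p = 0.965, edgeR's quasi-likelihood test) and passed with it (0.42; adjusted p = 0.00757). Smad1 passed in neither fit (log2 difference 0.23 in each, adjusted p = 0.257 with the block, edgeR's quasi-likelihood test). A whole-gene count includes exons outside a floxed segment, so such levels cannot show whether the floxed segments were lost. All directions below take the genotype from the labels. Prom1, the gene used for the sort, had 110.0, 129 and 132 CPM in SmadNes and 106, 124 and 129 CPM in control. All 12 radial glia markers examined passed the filter, and so did all 10 markers of cortical neurons, whose summed level was 4521 to 5760.1 CPM in SmadNes and 4548 to 6566 CPM in control. The sorted cells therefore also carried neuronal transcripts.

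Sequence upstream of the start listed by RefSeq (GRCm38.p6) is shown for the pair of Fat genes that the comparisons below turn on: Fat3, which was higher in SmadNes in all 3 pools, and Fat4, which had the largest fold between pools among the 6 tested members. Each window holds the 250 bases before the listed start, 5′ to 3′ on the gene's strand, for Fat3 chr9:16502055-16502304 on the minus strand and for Fat4 chr3:38886690-38886939 on the plus strand. Capitals mark a match to GGCGCC, a GC-rich element that SMAD proteins can bind.
Fat3: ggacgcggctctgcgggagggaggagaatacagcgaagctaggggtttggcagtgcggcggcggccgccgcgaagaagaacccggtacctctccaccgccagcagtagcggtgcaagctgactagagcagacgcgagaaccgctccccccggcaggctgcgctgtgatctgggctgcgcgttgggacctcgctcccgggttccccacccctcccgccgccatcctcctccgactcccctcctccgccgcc
Fat4: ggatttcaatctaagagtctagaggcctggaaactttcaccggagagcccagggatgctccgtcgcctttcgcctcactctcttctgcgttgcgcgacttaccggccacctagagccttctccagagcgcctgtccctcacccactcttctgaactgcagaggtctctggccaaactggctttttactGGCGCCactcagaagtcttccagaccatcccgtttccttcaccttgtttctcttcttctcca

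The Fat3 window was 70.4% G and C and held 27 CpG dinucleotides, against 54.8% and 11 in the Fat4 window, and a median of 52.4% and 6 over all 32851 windows of the same length. The Fat4 window held 1 GGCGCC, 62 bases before the listed start, and the Fat3 window held none; 9.59% of all windows held this motif. Neither window held the palindromic SMAD element GTCTAGAC (0.167% of all windows) or the TEAD element GGAATG, read as CATTCC on the other strand (12.6%). GGCGCC and GTCTAGAC read the same on both strands, and the only match overlapped no other motif. A match is a description of the letters and not a site of binding. The starts used lie 627 bases (Fat3) and 2273 bases (Fat4) inside the RefSeq genes, and the windows of Fat1 and Fat2 begin at internal exons and are not shown.

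The members differ widely in the length of their genes. On GRCm38 (GENCODE M21), Fat3 (ENSMUSG00000074505.5) spans 591097 bases at chr9:15910189-16501285 on the minus strand, and its longest transcript has 26 exons. Fat1 (ENSMUSG00000070047.14) lies at chr8:44935447-45052257 on the plus strand with 27 exons, Fat2 (ENSMUSG00000055333.14) at chr11:55250609-55336564 on the minus strand with 24 exons, and Fat4 (ENSMUSG00000046743.6) at chr3:38886940-39011985 on the plus strand with 17 exons. Dchs1 (ENSMUSG00000036862.15) is compact, with 21 exons at chr7:105752990-105787654 on the minus strand, whereas the 20 exons of Dchs2 (ENSMUSG00000102692.1) are spread over chr3:83127948-83357209 on the plus strand. Fjx1 (ENSMUSG00000075012.4), the mammalian Four-jointed, is a single-exon gene of 3134 bases at chr2:102449366-102452499 on the minus strand. Antisense genes overlap Fat1 (Gm2366), Fat4 (C230034O21Rik and Gm43539), Dchs1 (Gm15645) and Dchs2 (Gm10710). Counting used the strand-specific setting, per the labels, and no gene overlapped a member on its own strand.

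Per kilobase of exon, the ligand Dchs1 was the highest member in all 6 libraries and the receptor Fat2 and the ligand Dchs2 were nearly silent. Dchs1 averaged 45.9 ± 6.38 CPM per kb in SmadNes and 47.2 ± 6.81 CPM per kb in control (SD, n = 3 pools each, as for every mean below). Fat1, a receptor that organises actin at cell contacts, followed at 31.2 ± 3.94 CPM per kb in SmadNes and 29.8 ± 5.44 CPM per kb in control. Fjx1 stood at 24.4 ± 1.91 CPM per kb in SmadNes and 24.02 ± 2.88 CPM per kb in control.

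Below them came Fat4, with 19.4 ± 3.22 CPM per kb in SmadNes and 18.7 ± 4.18 CPM per kb in control, and Fat3, a receptor known from the retina for shaping the dendrites of amacrine cells, with 15.97 ± 1.46 CPM per kb in SmadNes and 14.4 ± 1.47 CPM per kb in control. Dchs2 averaged 0.0720 ± 0.0138 CPM per kb in SmadNes and 0.0661 ± 0.0371 CPM per kb in control, and Fat2 0.0139 ± 0.0099 CPM per kb in each genotype. Dchs1 stood clear of Fat1 in every library. In SmadNes the libraries' values of Fat1, Fjx1 and Fat4 did not overlap, whereas in control those of Fat1 and Fjx1 overlapped, as did those of Fjx1 and Fat4. Fat4 and Fat3 overlapped in both genotypes. This order of means did not depend on the choice of exon length: with the longest transcript as length, Fat3 stood at 18.3 CPM per kb in SmadNes and 16.5 in control, still below Fat4 at 20.6 and 19.9.

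**Figure D1:**
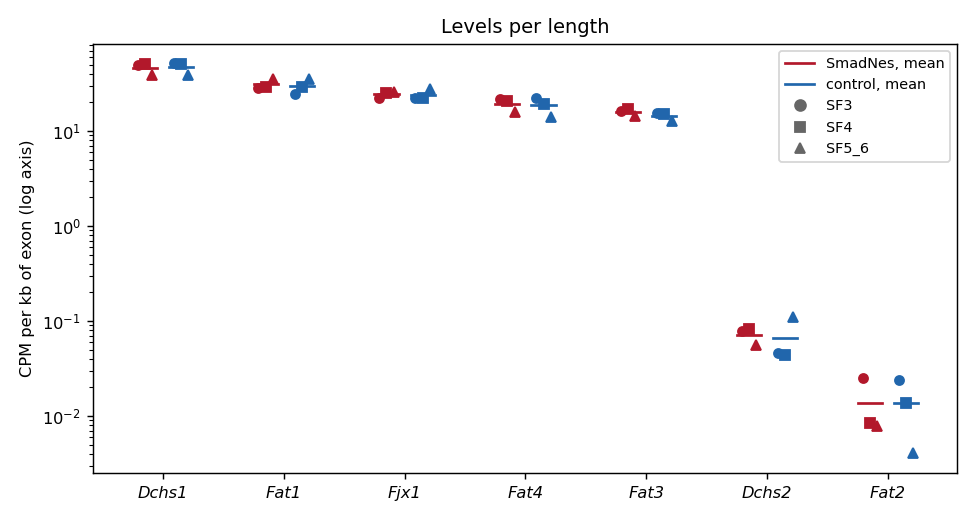
Level of each member in CPM per kb of exon, on a log axis with 1 point per library, SmadNes left of control, the pool shown by the marker and the mean of 3 pools by a horizontal bar. Dchs1 is highest at 45.9 in SmadNes and 47.2 in control, and Dchs2 and Fat2 lie below 0.1 in each genotype's mean.

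No tested member differed between SmadNes and control at an adjusted p of 0.05. Of the 6 members tested, 0 passed edgeR's quasi-likelihood test at a Benjamini-Hochberg adjusted p of 0.05, and over all 16869 genes the share called was 0%. At an unadjusted p of 0.05, 177 genes (1.05%) passed, and no member was among them. The fit with the pool name as a block (pools of the same name resembled each other) called 0 of 6 members as well, against 0.0237% of all genes. DESeq2 called 0 members without the block (0.0247% of genes) and with it (0.0494%), and so did limma-voom (0.00593% and 0.0474%). The libraries of the genotypes did not lie wholly apart for any member, in either direction. SmadNes lay wholly above control for 2.39% of tested genes and wholly below it for 2.38%.

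Neither ligand was called between genotypes. Dchs1 had 541, 555 and 427 CPM in the SmadNes SF3, SF4 and SF5_6 libraries, against 568, 562 and 434 CPM in the control SF3, SF4 and SF5_6 libraries. It was thus slightly lower in SmadNes in 3 of 3 pools, as were 14.3% of all tested genes, and the groups overlapped, with the SF5_6 library lowest in each. Its log2 difference was -0.04 (SE 0.143, 95% interval -0.38 to 0.31; adjusted p rounding to 1, edgeR's quasi-likelihood test), and with the block -0.04 (interval -0.11 to 0.04). Dchs2 rested on 32, 29 and 21 counts in SmadNes and 17, 19 and 40 counts in control. That is 82 counts in SmadNes (exact Poisson interval 65.2 to 101.8) and 76 in control (59.9 to 95.1), intervals that cover counting error only. Dchs2 was higher in SmadNes in SF3 and SF4 and lower in SF5_6, with a log2 difference of 0.13 (SE 0.421; adjusted p rounding to 1, edgeR's quasi-likelihood test).

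Among the receptors, Fat3 had the smallest unadjusted p in the blocked fit. It had 349.9, 370.4 and 309 CPM in the SmadNes SF3, SF4 and SF5_6 libraries, against 329, 325 and 273 CPM in the control SF3, SF4 and SF5_6 libraries. The SmadNes library was the higher one in 3 of 3 pools, by 1.06-fold, 1.14-fold and 1.13-fold, a pattern shared by 13.8% of tested genes. The groups still overlapped, because the SmadNes SF5_6 library lay below the control SF3 and SF4 libraries. Its log2 difference was 0.15 (SE 0.100, interval -0.09 to 0.39; adjusted p rounding to 1, edgeR's quasi-likelihood test), which is a fold between 0.938 and 1.31. With the block the estimate was also 0.15, with a narrower interval of 1.05-fold to 1.18-fold; the unadjusted p was 0.00243 and the adjusted p 0.405 (edgeR's quasi-likelihood test). In that fit 6.23% of all genes had an unadjusted p under 0.05. Fat3 therefore did not pass over all genes in either fit.

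Fat4 had 370.2, 358 and 269 CPM in SmadNes, against 386, 333 and 244 CPM in control, in the pool order SF3, SF4 and SF5_6. Both genotypes ran from high in SF3 to low in SF5_6 and overlapped over most of their range. The log2 difference was 0.05 (SE 0.195, interval -0.42 to 0.52), or 0.06 (interval -0.04 to 0.16) with the block. Fat1 had 446, 459 and 559 CPM in SmadNes, against 385, 459.99 and 555 CPM in control. The SF3 pair differed by 0.21 on the log2 scale, the SF4 pair by -0.004 and the SF5_6 pair by 0.01. The fitted difference was 0.06 (SE 0.152, interval -0.30 to 0.43), or 0.07 (interval -0.03 to 0.18) with the block. Fat2, a receptor best known from the cerebellum and from moving epithelial sheets, had 14, 4 and 4 counts in SmadNes and 12, 8 and 2 counts in control, which sums to 22 in each genotype (exact Poisson interval 13.8 to 33.3). No difference in Fat2 was detectable at this depth.

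Fjx1, the modulator kinase, had 69.7, 78.4 and 81.1 CPM in SmadNes, against 69.7, 70.4 and 85.7 CPM in control. The groups overlapped, and the pools disagreed in direction. Its log2 difference was 0.02 (SE 0.101, interval -0.22 to 0.27), and 0.02 with the block (interval -0.09 to 0.14). Ligand, receptors and kinase were thus measured with different precision: the blocked intervals were narrow for Dchs1, Fat1, Fat3, Fat4 and Fjx1, while Dchs2 ran from -0.67 to 1.05 on the log2 scale.

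**Figure D2:**
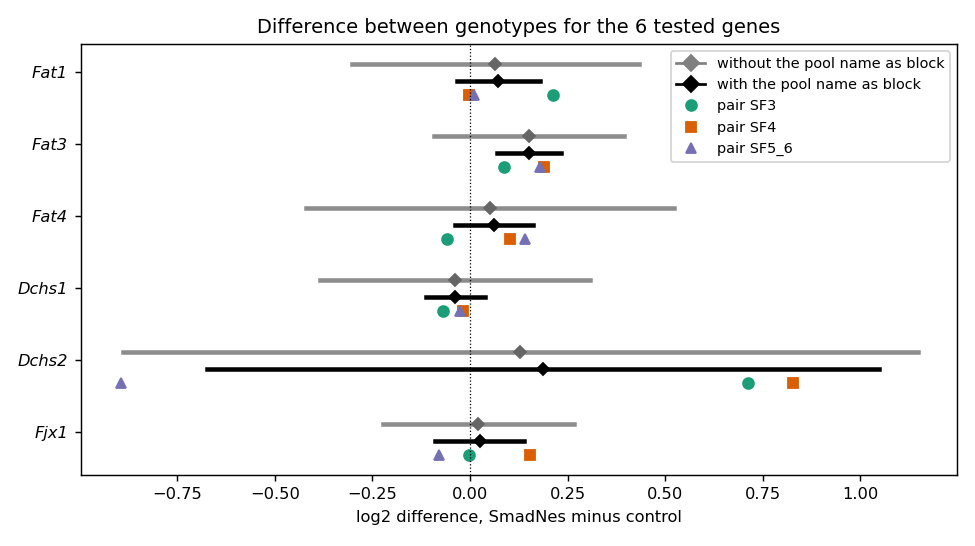
Log2 difference, SmadNes over control, for the 6 tested members without and with the pool block, with 95% intervals, and the 3 within-pool differences as points. Each interval without the block includes 0, and with the block that of Fat3 (0.07 to 0.23) does not, at an adjusted p of 0.405.

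The members did differ between pools. Comparing the 3 pool names with genotype in the model, 5 of the 6 tested members passed edgeR's quasi-likelihood test at an adjusted p of 0.05, against 28.8% of all tested genes (4864 of 16869). In the 5 called genes the mean over the SF5_6 libraries lay outside those over the SF3 and SF4 libraries, although SF3 and SF4 also differed in some. For Fjx1 in SmadNes, SF4 minus SF3 was 0.17 on the log2 scale and SF5_6 minus SF4 0.049. For Fat1 in control these differences were 0.26 and 0.27. The labels do not say what sets the SF5_6 pools apart, so the comparison is between names.

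Dchs1, Fat4 and Fat3 were lower in both SF5_6 libraries than in any of the other 4 libraries, which together with a call held for 12.1% of tested genes. Dchs1 averaged 430.5 CPM over the SF5_6 libraries, against 554 CPM over the SF3 and 559 CPM over the SF4 libraries, a ratio of 0.774 to the mean of the other pools (adjusted p = 0.000374, edgeR's quasi-likelihood test). Fat4 averaged 256 CPM in SF5_6, against 378 CPM in SF3 and 345 CPM in SF4, a ratio of 0.709 (adjusted p = 0.000286, edgeR). This ligand and its receptor were thus both low in the same 2 libraries. Fat3 averaged 291 CPM in SF5_6, against 339.6 CPM in SF3 and 348 CPM in SF4, a ratio of 0.846 (adjusted p = 0.00475, edgeR). The Fat3 call was lost without the control SF5_6 library (adjusted p = 0.0554).

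Fat1 and Fjx1 went the other way, above all of the other 4 libraries in both SF5_6 libraries, which together with a call held for 12.2% of tested genes. Fat1 averaged 557 CPM in SF5_6, against 415 CPM in SF3 and 459 CPM in SF4, which is 1.27-fold the mean of the other pools (adjusted p = 0.00188, edgeR's quasi-likelihood test). Fjx1 averaged 83.4 CPM in SF5_6, against 69.7 CPM in SF3 and 74.4 CPM in SF4, 1.16-fold (adjusted p = 0.0291, edgeR). DESeq2 called 4 members between pools (Fat1, Fat3, Fat4 and Dchs1), against 18.2% of all genes, and the Fjx1 call was lost with it (adjusted p = 0.0773). That call was also lost without the SmadNes SF3 library (0.0856), without the control SF3 library (0.0619), without both of these (0.0835) and without the control SF5_6 library (0.226). Dchs2 did not pass (adjusted p = 0.687). With both SF5_6 libraries left out, 0 members were called, against 7.39% of all genes, and the adjusted p of the 5 genes lay between 0.137 for Fat1 and 0.972 for Dchs1. Between SF3 and SF4 alone, Fat1 and Fat4 had unadjusted p-values of 0.0156 and 0.0183 in edgeR's quasi-likelihood test.

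**Figure D3:**
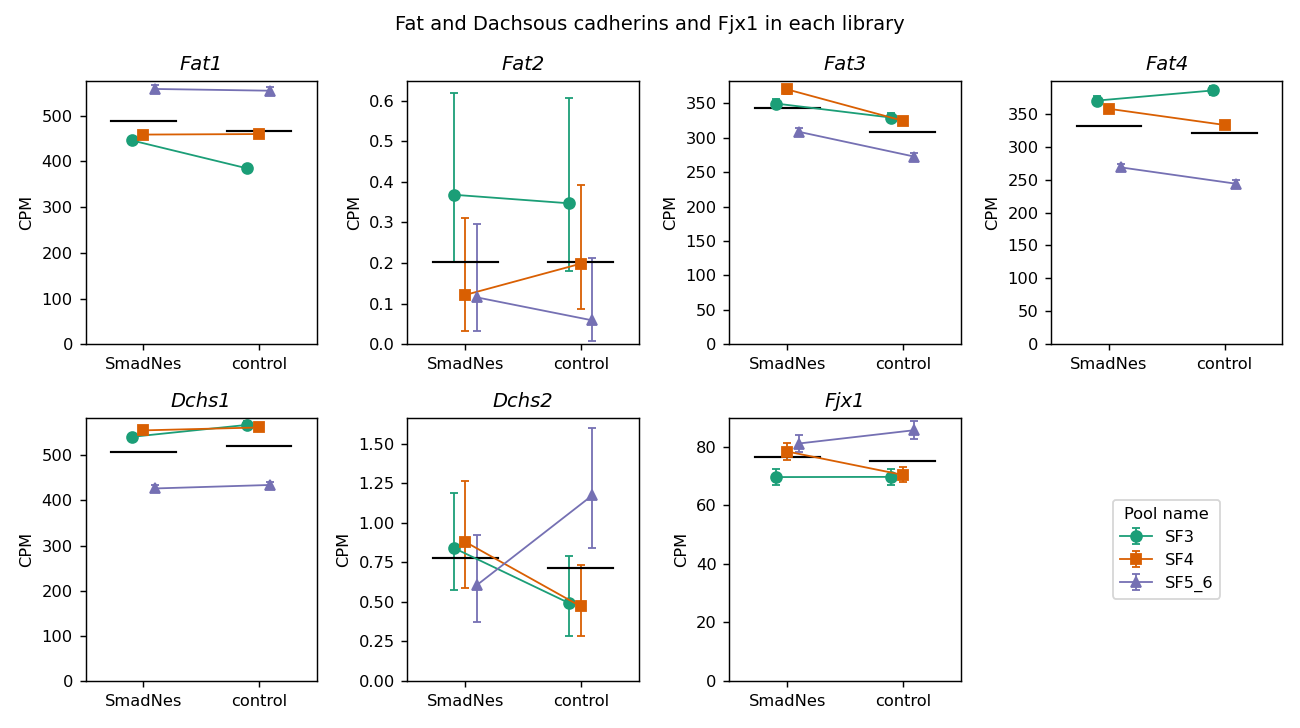
CPM of each member in the 6 libraries, 1 panel per gene, with SmadNes left of control, lines joining pools of the same name, vertical bars for the 95% counting interval and horizontal bars for the mean of 3 pools. The SF5_6 point is the lowest of its genotype for Dchs1, Fat4 and Fat3 and the highest for Fat1 and Fjx1 in both genotypes.

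The balance between members differed between pools too. Per kb of exon, Fat1 over Fat4 was 2.28 in the SmadNes SF5_6 library and 2.50 in the control SF5_6 library, against 1.32 and 1.41 in the SmadNes SF3 and SF4 libraries and 1.09 and 1.51 in the control SF3 and SF4 libraries. Fat1 over Fat3 was 2.48 in SmadNes SF5_6 and 2.79 in control SF5_6, against 1.60 to 1.94 in the other 4. The receptor-to-ligand ratio, Fat4 over Dchs1, was steadier, at 0.441, 0.415 and 0.406 in the SmadNes SF3, SF4 and SF5_6 libraries and 0.437, 0.382 and 0.361 in the control SF3, SF4 and SF5_6 libraries. Its values overlapped between genotypes, although within each pool name the SmadNes value was the higher one. This ratio was not tested. Dchs1 made up 29.6% of the members' summed level per kb in SmadNes SF5_6 and 30.4% in control SF5_6, against 35.2% to 37.7% in the other libraries, whereas Fat1 made up 27.4% and 27.5%, against 18.1% to 21.4%.

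Markers of several cell types moved with the pools. Among all tested genes, 12.1% were called and low in both SF5_6 libraries and 12.2% were called and high. The summed level of 6 intermediate progenitor markers was 906 CPM in SmadNes SF5_6 and 972 CPM in control SF5_6, against 1381 to 1501 CPM in the other 4 libraries, and 5 of the 6 were called and low in both SF5_6 libraries. The 10 neuronal markers summed to 4521 CPM in SmadNes SF5_6 and 4548 CPM in control SF5_6, against 5509 to 6566 CPM elsewhere, with 6 of the 10 called and low in both SF5_6 libraries, while Stmn2 was 0.34 higher on the log2 scale. The 12 radial glia markers summed to 2656 and 2594 CPM in the same SF5_6 libraries, against 2132 to 2544 CPM elsewhere, a sum in which Vim and Nes had the highest levels. Of these 12 markers 5 were called and high in both SF5_6 libraries, none was called and low in both, and Notch1, Pax6, Fabp7 and Slc1a3 had log2 differences of -0.13, -0.069, -0.066 and -0.032. The 6 Cajal-Retzius markers summed to 934 and 847 CPM in the SF5_6 libraries, against 992 to 1400.4 CPM elsewhere, but that sum followed Reln, the most abundant, at -0.63 on the log2 scale. The other 5 were higher in SF5_6, by 0.20 (Cxcr4) to 0.71 (Lhx5), and 4 of them were called and high in both SF5_6 libraries.

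Most markers of ventral telencephalon, of cortical hem and choroid plexus, of mesenchyme and of erythroid cells were higher in SF5_6. Called and high in both SF5_6 libraries were 8 of 10 for ventral telencephalon, 6 of 8 for cortical hem and choroid plexus and 9 of 10 for mesenchyme. The same held for 6 of 8 tested erythroid markers, 1 of 6 tested endothelial markers and 0 of 8 microglial markers, against 12.2% of all tested genes. The 10 markers of ventral telencephalon summed to 199.7 CPM in SmadNes SF5_6 and 280.3 CPM in control SF5_6, against 71.7 to 124 CPM elsewhere, and the 8 markers of cortical hem and choroid plexus to 497 and 679 CPM, against 328 to 443 CPM. The 10 mesenchymal markers summed to 1352 CPM in SmadNes SF5_6 and 1079.7 CPM in control SF5_6, against 296 to 919 CPM elsewhere, and the 9 erythroid markers to 656 and 1109 CPM, against 116 to 378 CPM. The 8 endothelial markers summed to 22.9 and 23.9 CPM in the SF5_6 libraries, against 17.5 to 22.3 CPM elsewhere. All 8 microglial markers were called between pools, but SF4 and not SF5_6 was lowest. In the order SF3, SF4 and SF5_6 they summed to 87.4, 14.0 and 67.2 CPM in SmadNes. In control they summed to 81.0, 15.7 and 62.6 CPM. No marker of any list was at 0 in every library. Between genotypes no marker was called without the block, but some lists leaned 1 way. Of the 10 ventral telencephalon markers 0 had a positive log2 difference (median -0.67). Of these, 8 were lower in SmadNes in 3 of 3 pools, against 14.3% of tested genes. All 6 Cajal-Retzius markers had a positive difference (median 0.20), and 3 were higher in 3 of 3 pools, against 13.8% of tested genes. The part of these cell types in the members' differences was not tested, and in a bulk sample fewer cells of a type and less RNA per cell cannot be told apart.

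**Figure D4:**
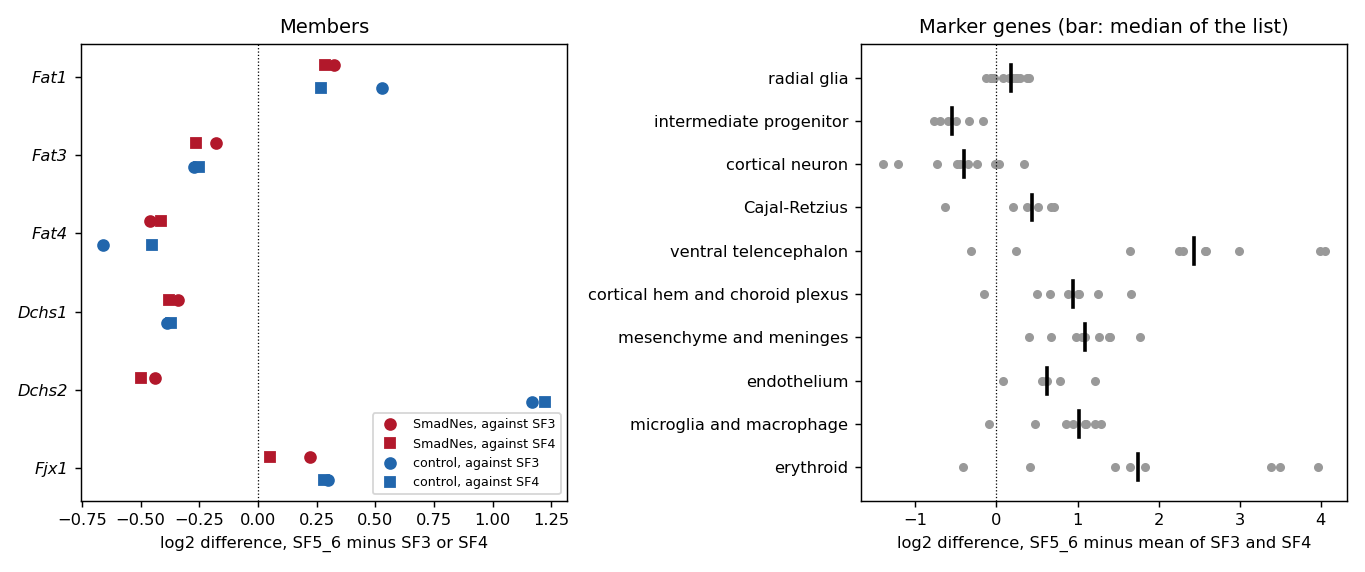
Left, log2 difference of SF5_6 from SF3 (circles) and SF4 (squares) for the 6 tested members, with SmadNes above control; right, the same difference from the mean of SF3 and SF4 for each tested marker gene, with a bar at the median of its list. Dchs1, Fat4 and Fat3 lie below 0 and Fat1 and Fjx1 above it in both genotypes, and the list medians run from -0.55 for intermediate progenitors to 2.43 for ventral telencephalon.

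The genes whose level across the 6 libraries was most like each member's, among the 12867 protein-coding genes averaging 1 CPM or more, are given by Pearson's r of log2 CPM as a description, since the libraries share pools. For Dchs1 they were Crkl, Dusp14 and Mgat5b (r = 0.998 each). For Fat4 they were Kif5c, a neuronal kinesin heavy chain (r = 0.998), the transcription factor Zeb2 (0.996) and the formin Fhod3 (0.996). For Fat3 they were Strn3 (0.988), Rnf144a (0.986) and Eif3h (0.980). For Fat1 they were Isoc1 (0.998), the homeodomain repressor Tgif1 (0.997) and the secreted cerebellin Cbln4 (0.997). For Fjx1 they were the mitochondrial transcription factor Tfam (0.998), Bnip3 (0.997) and Fbxo30 (0.994). Such likeness was common: r exceeded 0.9 for 1749 genes (13.6%) with Dchs1, 1359 (10.6%) with Fat4, 1023 (7.95%) with Fat1, 416 (3.23%) with Fjx1 and 204 (1.59%) with Fat3.

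The other genes of the pathway were taken from lists drawn up by known function. None of the 14 tested core planar polarity genes, 20 partners and effectors of the Fat cytoplasmic tail, 18 Hippo pathway genes, 9 YAP targets or 33 other cadherins and catenins passed between SmadNes and control, as no gene did. The median log2 differences were 0.004 for planar polarity, -0.02 for the tail partners, 0.03 for Hippo, 0.01 for the YAP targets and -0.01 for the other cadherins, against -0.0004 for all tested genes. With the block, 1 list gene was called: Homer2, a scaffold protein, fell by 0.39 on the log2 scale (adjusted p = 0.0453, edgeR's quasi-likelihood test).

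Between pools, 9 of the 14 planar polarity genes were called, 6 of them low and 3 high in both SF5_6 libraries. Celsr1, an atypical cadherin and core component of planar polarity, had 345 CPM in SmadNes SF5_6 and 357 CPM in control SF5_6, against 597 and 686 CPM in the SmadNes SF3 and SF4 libraries and 588 and 648 CPM in the control SF3 and SF4 libraries (adjusted p = 1.18e-05, edgeR). Ankrd6, Celsr3 and the membrane protein Vangl2 were low in SF5_6 as well (adjusted p of 1.43e-05, 0.000245 and 0.000731, edgeR). The 3 high genes were Vangl1, Fzd6 and Prickle2, at 0.49, 0.59 and 0.23 on the log2 scale (adjusted p of 0.0261, 0.00958 and 0.0210, edgeR). Among the tail partners 5 of 20 were called, 4 of them low in both SF5_6 libraries: the kinase Csnk1e, the actin regulator Evl, Cyfip2 of the WAVE complex and Lix1l.

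In the Hippo pathway 6 of 18 genes were called, with 3 low and 2 high in both SF5_6 libraries. Yap1, the coactivator that the pathway restrains, had 146 CPM in SmadNes SF5_6 and 144 CPM in control SF5_6, against 106 and 120.4 CPM in the SmadNes SF3 and SF4 libraries and 92.2 and 119 CPM in the control SF3 and SF4 libraries (adjusted p = 0.000465, edgeR). Its upstream regulators Wwc1, Stk3 and Nf2 were low in SF5_6 (adjusted p of 0.000208, 0.0155 and 0.0226, edgeR). Frmd6 went the other way and was the second high gene of the list (adjusted p = 0.0268, edgeR). It had 19.3 CPM in SmadNes SF5_6 and 18.1 CPM in control SF5_6, against 14.3 to 15.6 CPM elsewhere. Of the 9 tested YAP targets 8 were called, 5 of them high and 2 low in both SF5_6 libraries, and the tenth listed target, Ankrd1, had 0 counts in every library. Ccnd1, cyclin D1, had 181 CPM in SmadNes SF5_6 and 192 CPM in control SF5_6, against 79.0 and 70.0 CPM in the SmadNes SF3 and SF4 libraries and 71.2 and 88.9 CPM in the control SF3 and SF4 libraries (adjusted p = 3.09e-05, edgeR). Axl, Nuak2 and Ajuba were also high in SF5_6. The 2 low targets were Cyr61 and Crim1, at -0.30 and -0.41 on the log2 scale (adjusted p of 0.0432 and 0.0128, edgeR). Wwtr1, the gene of the YAP relative TAZ, was called with a small negative difference of -0.098 (adjusted p = 0.0491, edgeR). The Hippo kinases Lats1, Lats2 and Stk4 did not pass between pools (adjusted p of 0.590, 0.882 and 0.806, edgeR).

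Of the 33 other cadherins and catenins 18 were called between pools, 7 low and 6 high in both SF5_6 libraries. Cdh13 had 12.47 CPM in SmadNes SF5_6 and 11.2 CPM in control SF5_6, against 38.7 and 32.8 CPM in the SmadNes SF3 and SF4 libraries and 53.1 and 31.9 CPM in the control SF3 and SF4 libraries (adjusted p = 5.76e-05, edgeR). Pcdh7 and Ctnnd2, a catenin of neurons, were low as well, whereas Cdh11 was high, at 95.6 CPM in SmadNes SF5_6 and 95.2 CPM in control SF5_6, against 41.1 to 61.9 CPM in the other 4 libraries. These shares of 9 of 14, 5 of 20, 6 of 18, 8 of 9 and 18 of 33 stand beside the 28.8% of all tested genes called between pools.

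**Figure D5:**
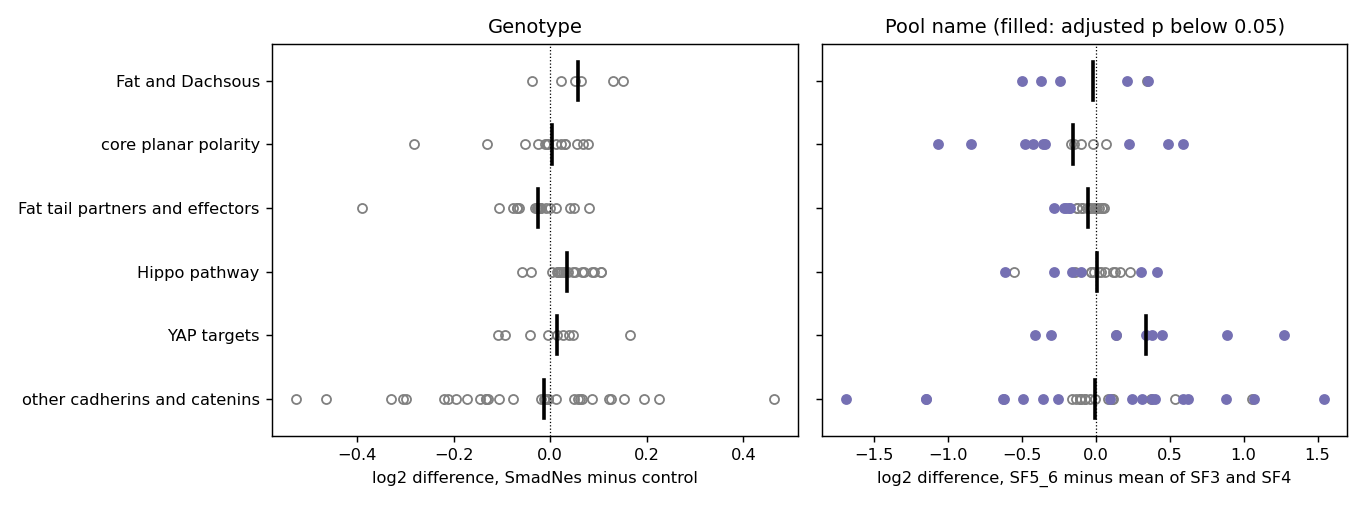
Genotype difference (log2, SmadNes over control) and pool difference (log2, SF5_6 over SF3 and SF4) of each tested gene of the pathway lists, with a line at each list's median. The genotype medians lie between -0.02 and 0.03 for the 5 lists other than the members, while single genes differ more between pools, such as Cdh13 at -1.69 and Ccnd1 at 1.28. Filled points passed the test between pools.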

How the data were processed

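Stranded poly(A) RNA-seq libraries (KAPA kit, paired-end reads on a HiSeq2500) were aligned by the authors to GRCm38 with STAR 2.5.3a and quantified with RSEM 1.3.0 on GENCODE M15, per the labels' protocols; DESeq2 1.18 is named in the submitters' processing notes. The authors deposited 1 table of expected counts per gene for the 6 libraries, without normalization. RSEM assigns ambiguous reads in fractions, so paralogs with shared sequence can exchange counts.

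The expected counts were filtered with filterByExpr (minimum count 10) and then scaled by TMM. Genotype was tested with edgeR 4.0.16 (R 4.3.3), quasi-likelihood, Benjamini-Hochberg adjusted over 16869 genes, without a pool term. Pool names were tested jointly with genotype in the model. Limma 3.58.1 (voom) and DESeq2 1.42.0 were alternatives, with other scalings and filters and each library left out. The scripts were tested on simulated data. Deviations from genotype means of same-named pools correlated positively (r = 0.493, 0.697 and 0.724), whereas r was negative between differently named pools (-0.566 to -0.0582), as centring on a mean of 3 pools favours; by the positive values the pool names, shared in the labels, were taken to pair the libraries. The biological coefficient of variation was 0.198 without the block and 0.0556 with it.

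CPM are TMM-scaled. Levels per kb use the union of exons in GENCODE M21. Named genes were the 7 members, the 3 genes most like each expressed member, and Smad1, Smad5 and Prom1. From each pathway list, up to 4 called genes with the smallest p were named. Homer2, Ankrd1, Frmd6, Vangl1, Fzd6, Prickle2, Cyr61, Crim1, Wwtr1, Lats1, Lats2, Stk4 and single marker genes were added after their values were seen. Members and lists were chosen with earlier results of these data known.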

Additional observations from a re-analysis of the deposited data

How the results depend on the processing

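No member was called between SmadNes and control under any alternative run. Fat3 kept its sign in all 17 alternatives (0.06 to 0.22 on the log2 scale), whereas small differences turned sign when single libraries were left out: Fat1 ran from -0.056 to 0.20, Fat4 from -0.12 to 0.20, Dchs1 from -0.16 to 0.072, Dchs2 from -0.10 to 0.68 and Fjx1 from -0.030 to 0.12. With the replicate block, Dchs2 turned to -0.079 without the SF3 pair and -0.14 without the SF4 pair, and was 0.83 without the SF5_6 pair (adjusted p = 0.611, edgeR), against 0.19 in the whole blocked fit, and Fjx1 turned to -0.042 without the SF4 pair. Over all genes, 0 calls between genotypes became 4 with the replicate block, 7 with DESeq2, 14 with DESeq2 and the block, 1 with limma-voom, 8 with limma-voom and the block, and 10, 48 and 149 in the blocked fit without the SF3, SF4 and SF5_6 pairs; the cause was not tested. The block changed no call on a member. Between pools, 4864 calls became 3157 with DESeq2 and 1250 without both SF5_6 libraries, an alternative chosen after seeing the data, where members called fell to 0. Leaving out single libraries gave 3 to 6 called members: the 3, without control SF5_6, were Fat1, Fat4 and Dchs1 (19.7% of all genes called), and the 6, without control SF4 (29.1%), included Fat2, then tested on few counts (adjusted p = 0.0438, edgeR; 0.0858 to 0.224 in the other 3 such fits that tested it). Levels per kb stayed within 1 SD with the longest transcript as length except those of Fat3, at 18.3 in SmadNes and 16.5 in control. Fat2 and Dchs2 are limited by depth.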
